A study of Drosophila melanogaster with 2 samples.

Results

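The genes described here encode transcription factors of the basic helix-loop-helix (bHLH) family, the family to which Sage itself belongs. The list named 37 genes by family and symbol. No measured value enters the rule, although the list was drawn up with earlier results of these data known. Of these, 36 were found by symbol among the 13945 protein-coding genes of the Ensembl BDGP 6 annotation on the assembled arms (X, 4, and both arms of chromosomes 2 and 3). The gene not found, h (hairy), is annotated under the newer symbol hry and is described separately. The binding data came from chromatin immunoprecipitation with sequencing (ChIP-seq) on whole larvae of Drosophila melanogaster in the wandering phase of the third instar, males and females pooled, of a transgenic line in which Sage carries GFP (eGFP in the description) at its C-terminus. An antibody against GFP was used. Both samples, biological replicates 3 and 4, carried the same transgene and formed 1 group (Sage-GFP). No untagged or wild-type larvae were analysed here, and the age of the larvae is given as unknown. The sources used here give neither the promoter nor the cells in which the fusion is expressed. Peak lists from whole animals hold no RNA, so neither the tissue that gave a region nor the expression of any gene could be checked.

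A bHLH protein binds DNA as a dimer, through basic regions that read a short site called the E-box (CANNTG). Tissue-specific members usually pair with a common partner, which in the fly is Daughterless (encoded by da). Members that lack a basic region, such as Extramacrochaetae (emc), hold partners in dimers that cannot bind DNA. Other branches pair among themselves. Several bHLH-PAS factors, though not all, share the partner Tango (tgo), Myc and Mnt share Max, and Mondo pairs with Bigmax. Sage is best known as a factor of the salivary gland.

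The deposited data were lists of regions on dm6, each with a summit and a signal, the authors' own value for the region against a control. Replicate 3's list held 29999 regions and replicate 4's 30000, and a pooled list held 30000. The 3312 regions that passed the submitters' irreproducible discovery rate (IDR) threshold are called IDR peaks here. Of these, 3292 lay on the arms. Read depth is unknown, so no value carries a counting error of reads, and signals and ranks (1 is the strongest) are comparable only within a list. The IDR peaks carry pooled signals, of at least 95.7. With 1 group and no control samples, no test between groups was possible, and the counts below are set beside the same counts over all protein-coding genes.

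Genes count as bound here if they have an annotated transcription start site (TSS) no more than 1 kb from the summit of an IDR peak. Of the 36 bHLH genes, 5 were bound, or 13.9%, against 14.4% of all protein-coding genes (2010 of 13945). The share among the bHLH genes was thus near the background. The bound genes were da, the hypoxia factor gene sima, and the leucine zipper genes crp, Max and Mnt. An IDR summit lay inside 10 of the 36 genes (27.8%), against 8.61% of all protein-coding genes (1200 of 13945). That comparison is not matched for length, and longer genes more often held a body summit. Of the 36 genes, 10 were over 20 kb, against 1013 of all 13945. Among genes of that length, 6 of the 10 bHLH genes (60.0%) held a body summit, against 41.0% of all, and shorter classes are given below. Altogether 11 of the 36 genes had an IDR summit within 1 kb of a TSS or in the body, and these genes held 30 of the 3292 summits (0.911%).

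The windows below show the DNA at the strongest summit within 1 kb of a TSS for each of the 5 bound genes. They run 50 bp to either side of the summit on the plus strand of dm6, with sequence from the RefSeq Release 6 genome. Bases of annotated exons were left out, which shortened the windows of Mnt and da. At Mnt the summit itself (3689366) lay in an exon, so only bases to its left are shown. E-boxes are in capitals. In order, the windows lie at chr2L:10388016-10388104, chr3R:30099207-30099307, chr2L:16286754-16286854, chr3L:19264213-19264313 and chrX:3689316-3689362. A last window, at chr3R:30061264-30061364, lies at another summit inside sima and is added because that was the strongest peak at any of the genes, a choice made after the values were seen.
da: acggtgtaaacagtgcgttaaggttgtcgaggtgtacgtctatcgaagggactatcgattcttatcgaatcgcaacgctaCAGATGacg
sima: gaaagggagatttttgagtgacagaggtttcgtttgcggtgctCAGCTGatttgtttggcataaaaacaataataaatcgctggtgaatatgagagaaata
crp: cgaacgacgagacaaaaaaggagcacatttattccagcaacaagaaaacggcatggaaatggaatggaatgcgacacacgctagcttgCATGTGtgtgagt
Max: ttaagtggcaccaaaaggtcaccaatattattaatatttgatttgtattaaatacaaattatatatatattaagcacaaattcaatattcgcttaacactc
Mnt: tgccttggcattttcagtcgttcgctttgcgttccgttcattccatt
sima inner peak: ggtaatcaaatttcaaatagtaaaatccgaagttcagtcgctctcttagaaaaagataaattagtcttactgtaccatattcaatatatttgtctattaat
The first windows of da, sima and crp each hold 1 E-box, and those of Max, Mnt and the inner peak of sima hold none. The Max window is rich in A and T, with a GC content of 23.8%, against 47.2% for the da window.

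**Figure D1:**
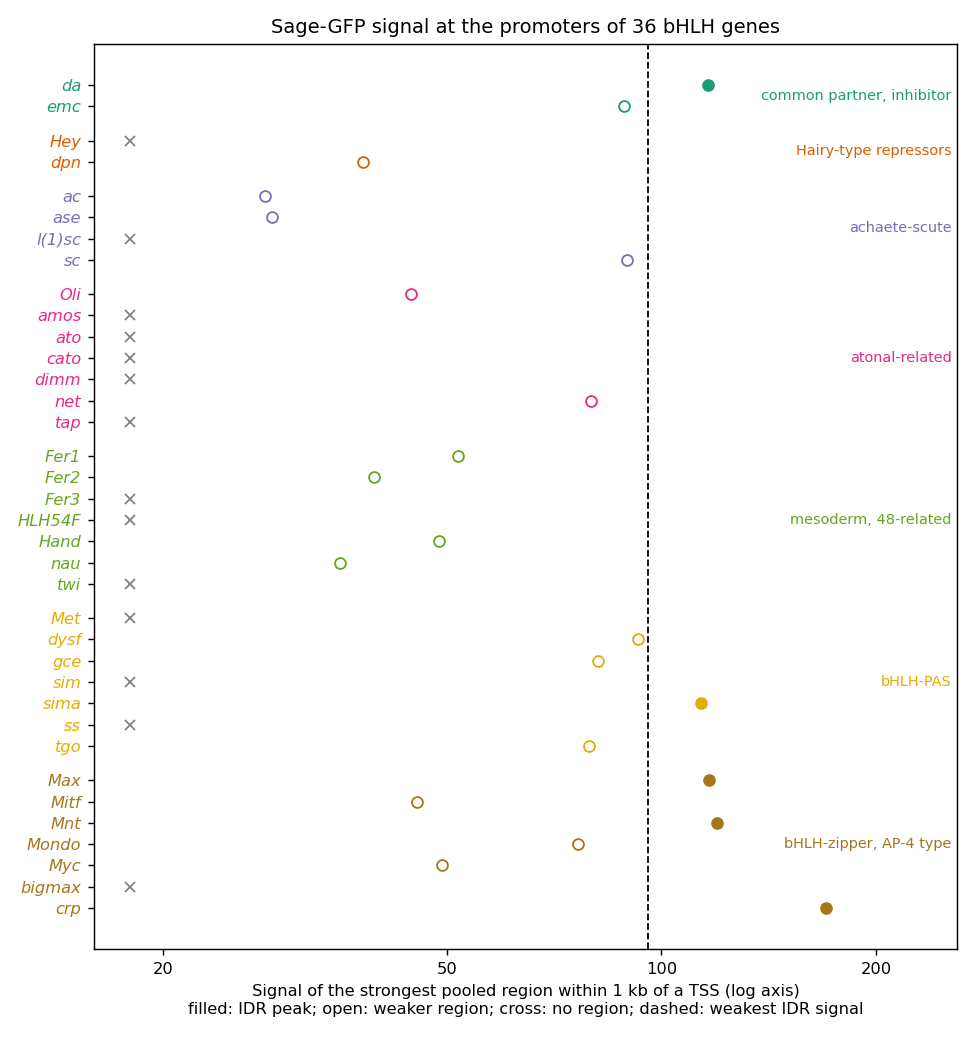
For each of the 36 bHLH genes, grouped by branch of the family, the plot gives the signal of the strongest region of the pooled list within 1 kb of a TSS, on a log axis. Filled points are IDR peaks, open points weaker regions, and crosses mark the 14 genes with no region of the pooled list there. The 5 filled points lie between 113.5 and 169.9, right of the dashed line at 95.7, the weakest IDR signal, and 3 of the 5 belong to the bHLH-zipper and AP-4 type branch.

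Among the common partners and inhibitors, da (2L 10388105 to 10393228) was bound and emc was not. The da summit lay 39 bp upstream of its only annotated TSS, with a pooled signal of 116. The same region had a signal of 50.5 (rank 2717) in replicate 3 and 62.9 (rank 2944) in replicate 4. No IDR summit lay inside da. For emc (3L 749400 to 753492), the strongest region within 1 kb was 72 bp upstream of the TSS, with a pooled signal of 88.7 and rank 3770. This signal was under that of every IDR peak, and the region's ranks were 4339 in replicate 3 and 4834 in replicate 4. Replicate 4 had another region within 1 kb of the emc TSS at rank 1976, so emc was bound in that replicate's own 3312 strongest regions. The nearest IDR summit to emc was 9330 bp away.

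Among the Hairy-type repressors, several of which recruit the corepressor Groucho, a peak lay inside dpn and none lay at Hey. Deadpan (dpn, 2R 8228971 to 8232330), a repressor of neural stem cells, had an IDR summit in an intron, 1409 bp downstream of its TSS. The summit was nearer to the TSS of a non-coding gene, sisRNA:4 (144 bp). That peak had a pooled signal of 175 (rank 923) and ranked 829 in replicate 3 and 1862 in replicate 4. It was just outside the limit of 1 kb, and dpn was bound with a limit of 2 kb. Within 1 kb dpn had only a pooled region of signal 38.1, 123 bp upstream of the TSS. Hey had no region within 1 kb in any list, and its nearest IDR summit was 62735 bp away. Hairy, matched through its older symbol h, had an IDR summit in the 5' UTR, 56 bp downstream of a TSS (hry, 3L 8675759 to 8679253). Its pooled signal of 101 put it at rank 3002, and it ranked 3470 in replicate 3 and 3469 in replicate 4. With it, 6 of the 37 listed genes were bound, again near the 14.4% of all protein-coding genes.

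None of the 4 achaete-scute genes, which start sensory organ and neural precursor development, was bound. Scute (sc) came closest, with a pooled region 84 bp upstream of its TSS (X 396060 to 397497), a signal of 89.4 and rank 3718. Replicate 4 had this region at rank 1718 with a signal of 82.1, and replicate 3 had no region there. Only replicate 4 thus placed sc among its 3312 strongest regions. For ac and ase the pooled regions were weak, with signals of 27.8 and 28.4, and l(1)sc had no region within 1 kb in any list. The complex from ac to ase spans 93.1 kb, in which 2 IDR summits lay, where the mean density over the arms would give 2.29. Both lay between l(1)sc and ase, 48146 bp downstream of the sc TSS and 12236 bp upstream of the ase TSS, with pooled signals of 110.0 and 165.

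The 7 atonal-related genes had no IDR peak within 1 kb of a TSS or in the body. Of them, net, a regulator of wing veins, had a pooled signal of 79.6 at a region 200 bp upstream of its TSS (rank 5042 in replicate 3 and 7701 in replicate 4). Oli had a pooled signal of 44.6. The proneural genes ato and amos, the sense organ gene cato, the neurogenin relative tap and the neuroendocrine factor gene dimm had no pooled region within 1 kb. These 7 genes were as short as 0.712 kb (cato) and no longer than 10.4 kb (dimm).

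None of the 7 mesodermal and 48-related genes was bound at a TSS, but nau and twi held IDR summits in introns. In nau (3R 23712814 to 23718357), the fly relative of MyoD, the summit lay 4256 bp downstream of the TSS, with a pooled signal of 161 (rank 2908 in replicate 3 and 929 in replicate 4). It was nearer to the TSS of CG10300 (2574 bp). The twi gene, which encodes the mesoderm determinant Twist, is annotated over 63.0 kb (2R 22985374 to 23048325) and held 2 summits, with signals of 113 and 109. The stronger of them lay 476 bp from the TSS of CG9896, a gene annotated nearby, and 13034 bp from any TSS of twi. Replicate 3 ranked it 2341 and replicate 4 ranked it 4892, whereas the other twi summit ranked 7516 and 2479. Hand, Fer1 and Fer2 had weaker pooled regions within 1 kb, with signals of 48.8, 51.9 and 39.5, and that of nau itself was 35.4. Fer3 and HLH54F had none.

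Of the 7 bHLH-PAS genes, only sima met the rule for a bound gene, and its strongest peak lay outside the limit of 1 kb. The gene encodes Similar, the fly counterpart of HIF-alpha in the response to low oxygen, and spans 63.5 kb (3R 30058311 to 30121798) with 3 annotated TSSs. The summit that made it bound lay in an intron 263 bp upstream of the most downstream TSS, with a pooled signal of 113.5. That region was at rank 6794 in replicate 3 (signal 32.7) and at rank 1858 in replicate 4 (signal 79.3), so the replicates differed widely and sima was bound in replicate 4's own strongest regions but not in replicate 3's. The strongest peak of all 30 at bHLH genes was also in sima, in an intron 3003 bp from the gene's 5' end and 1608 bp upstream of the next TSS. Its pooled signal was 328 (rank 226), and it ranked 176 in replicate 3 (signal 156) and 323 in replicate 4 (signal 168). Both replicates thus placed it high. Its window is the last of those printed above.

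The other bHLH-PAS genes included the genes of both juvenile hormone receptors, Met and gce, which had no IDR peak within 1 kb of a TSS. The gce gene (X 15297766 to 15319074) had a summit in an intron 3323 bp from a TSS, with a pooled signal of 119 (rank 1378 in replicate 3 and 4400 in replicate 4), and its strongest pooled region within 1 kb, 540 bp upstream of a TSS, had a signal of 81.5. The Met gene had no pooled region within 1 kb, although each replicate's own list had one there (rank 5011 in replicate 3 and 4717 in replicate 4). The tracheal fusion gene dysf had the strongest region within 1 kb of a TSS among the unbound genes of the 36, 431 bp upstream of a TSS, with a pooled signal of 92.6 at rank 3506 (rank 2790 in replicate 3 and 7436 in replicate 4). It also held an intronic IDR summit of signal 117, 16263 bp from its nearest TSS and 10211 bp from that of a non-coding gene. For tgo, the region 105 bp upstream of the TSS had a pooled signal of 79.2 and ranked 3006 in replicate 3 but 10868 in replicate 4. Replicate 3's own 3312 strongest regions thus gave dysf, gce and tgo as bound, and replicate 4's gave none of the 3. The midline gene sim and the aryl hydrocarbon receptor relative ss had no IDR peak and no pooled region within 1 kb.

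In the branch of leucine zipper factors, 3 of 7 genes were bound (crp, Max and Mnt, 42.9%), against 14.4% of all genes and 27.0% of all genes over 20 kb, a length that crp and Mnt exceed. The branch is small and the difference was not tested. Myc, which was not bound, held summits in its body. The cropped gene crp, the fly relative of AP-4, had the strongest promoter peaks of the 36 genes (2L 16263556 to 16287730, 1 annotated TSS). Its summits lay 338 and 132 bp upstream and 926 bp downstream of the TSS, with pooled signals of 97.1, 156 and 170. The last was the summit closest inside the limit of 1 kb. It ranked 3531 in replicate 3 and 773 in replicate 4. The upstream pair overlapped, and both fell on the same region of each replicate (rank 1755 in replicate 3 and 1494 in replicate 4). The summit at 338 bp was nearer to another gene, 222 bp from the TSS of pkaap. In its introns crp held 4 further summits, 1835, 3177, 14807 and 18148 bp downstream of the TSS, with pooled signals of 196, 187, 123 and 191. Those at 14807 and 18148 bp were nearer to the TSS of CG4935 (10782 and 7441 bp). All 4 had a region in both replicates, ranked between 581 and 3939 in replicate 3 and between 396 and 1678 in replicate 4.

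Max, the partner of Myc and Mnt, had 2 summits within 1 kb (3L 19262232 to 19264184). The summit 79 bp upstream of the TSS had a pooled signal of 117, with rank 2195 in replicate 3 and 3092 in replicate 4. The summit 531 bp downstream of the TSS, in an intron, had a signal of 106 and lay 113 bp from TSSs of Mettl5 and CG42374. Myc, the growth regulator (X 3373159 to 3391697), was not bound. Its nearest IDR summit was 1715 bp upstream of the TSS, with a signal of 127 (rank 2117 in replicate 3 and 2395 in replicate 4), and the gene was bound with a limit of 2 kb. A pooled region 397 bp upstream had a signal of 49.3. Within Myc, summits lay in an intron (signal 142) and in the 3' UTR (signal 98.3).

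Mnt, a repressor that competes with Myc for Max, carried the most summits. Its body of 29.9 kb (X 3671801 to 3701672) held 9 IDR summits, where its length at the mean density over the arms would give 0.735. Of all protein-coding genes, 13 held 9 or more IDR summits, and all 13 were among the 1013 genes over 20 kb. The 9 signals lay between 95.8 and 120.7, so each was weak among IDR peaks, whose median was 135. The summit 3 bp downstream of the TSS in the middle of the gene had a signal of 119.6 and ranked 4604 in replicate 3 and 1537 in replicate 4. The ranks of the other 8 ran between 1758 and 8104 in replicate 3 and between 1852 and 4007 in replicate 4. Of the 9, 8 lay in introns and 1 in the 5' UTR, and 2 of them overlapped and fell on 1 region of each replicate.

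Of the sugar-sensing pair, Mondo had a pooled region with a signal of 76.4 that lay 780 bp from its own TSS and 36 bp from that of crc, and bigmax had none. The lysosomal regulator gene Mitf, on the small chromosome 4, had weak pooled regions within 1 kb, with signals up to 45.4, and its nearest IDR summit was 52268 bp away.

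**Figure D2:**
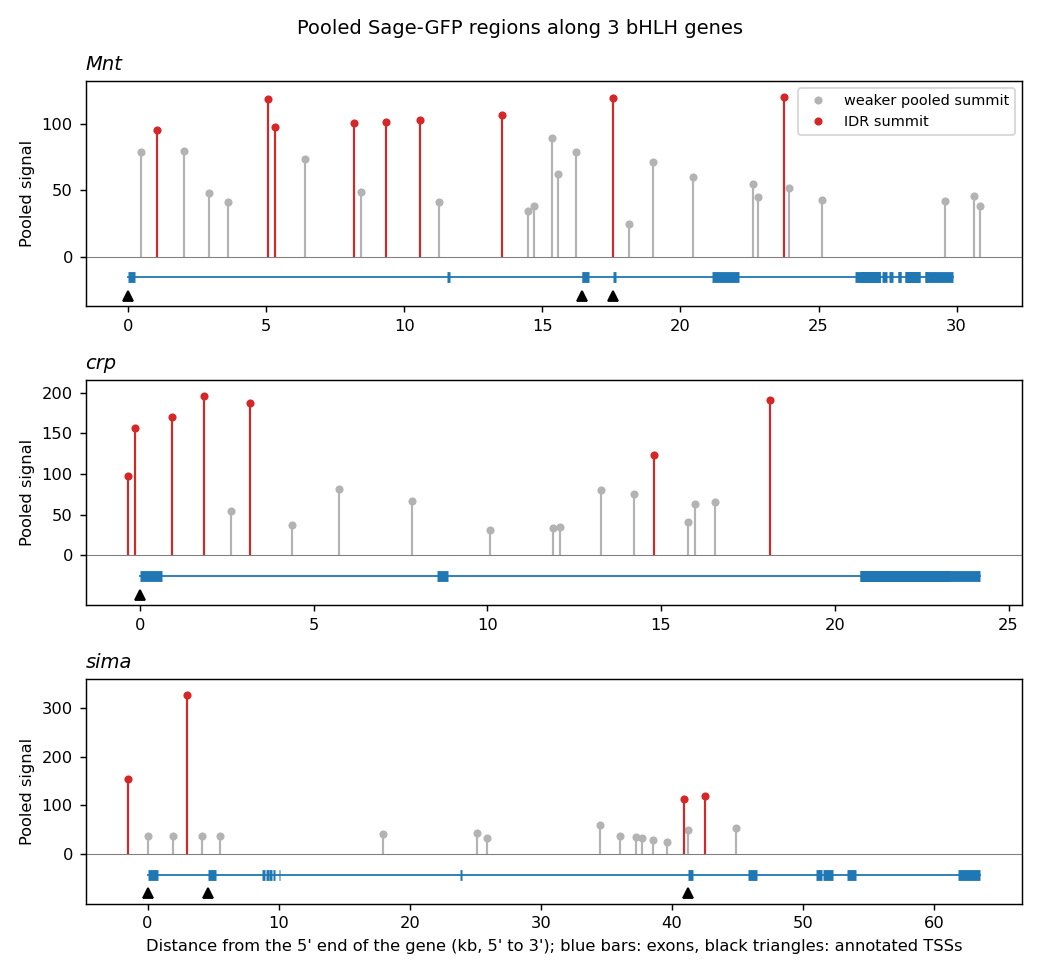
Regions of the pooled list along Mnt, crp and sima, by distance in kb from the 5' end of each gene, with the height of each line giving the pooled signal of the region. Red lines are IDR summits and grey lines weaker pooled regions, blue bars are exons and black triangles annotated TSSs. Mnt shows 9 red lines of similar height (95.8 to 120.7), crp shows 5 in the gene and 2 upstream of it, and sima shows its tallest (328) between its first TSS and the next.

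Gene body summits were unevenly spread over the genes. The merged bodies of the 36 genes covered 0.417 Mb with 26 summits, or 62.4 summits per Mb, against 22.2 per Mb over all protein-coding genes (1997 summits in 90.0 Mb). Without Mnt the density at the bHLH genes was 43.9 per Mb. The 10 bHLH genes over 20 kb had 65.0 summits per Mb (40.9 without Mnt), against 20.9 in all genes of that length. The bHLH genes of 20 kb or less had 5 summits in 0.0936 Mb, or 53.4 per Mb, against 23.5. Of the 26 body summits, 24 lay in introns, 1 in a 5' UTR and 1 in a 3' UTR. Counted by length, 2 of the 20 bHLH genes of up to 5 kb had a body summit, against 2.88% of all genes of that length, 2 of the 6 of 5 to 20 kb (33.3%), against 19.6%, and 6 of the 10 over 20 kb (60.0%), against 41.0%. The densities and shares come from 1 list of genes and were not tested.

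**Figure D3:**
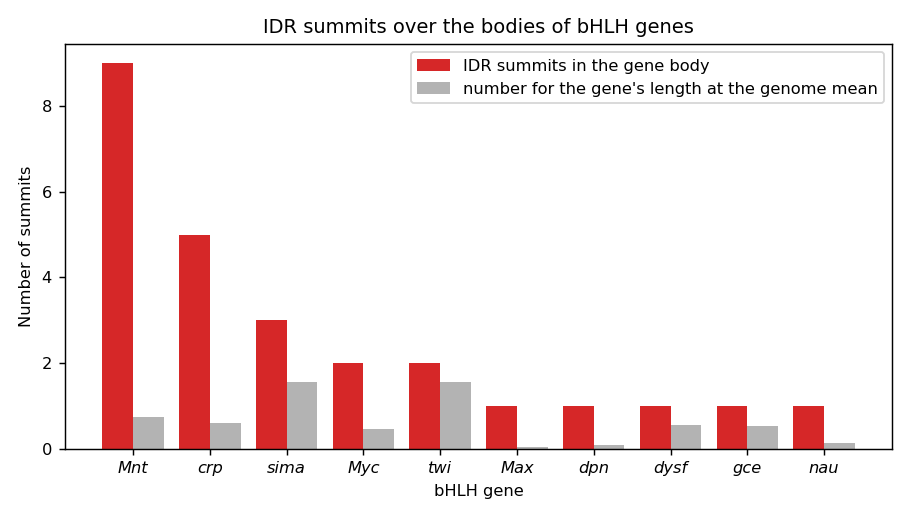
For each of the 10 bHLH genes with an IDR summit in the body, the red bar gives the number of summits and the grey bar the number that the length of the gene would hold at the mean density over the arms. Mnt (9 against 0.735), crp (5 against 0.594) and sima (3 against 1.56) hold 17 of the 26 body summits.

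Bound bHLH genes did not stand at the top of the list of bound genes. The strongest signal within 1 kb was 113.5 at sima, 116 at da, 117 at Max, 119.6 at Mnt and 170 at crp, with a median of 117, against a median of 141 over all 2010 bound genes. Only crp was above that median, and 33.6% of all bound genes had a stronger peak than crp. The 36 genes had a median length of 3.73 kb, against 2.17 kb for all genes. Among all genes the share of bound genes was higher at genes with more TSSs, so the counts were also set out by that number. Of the bHLH genes with 1 TSS, 3 of 25 (12.0%) were bound, against 10.1% of all such genes. Of those with 2 TSSs, 0 of 3 were bound, against 20.8%, and of those with 3 or more, 2 of 8, against 39.5%. By length, 1 of the 20 bHLH genes of up to 5 kb was bound (Max), against 10.9% of all such genes. Of those of 5 to 20 kb, 1 of 6 was bound (da, 16.7%), against 24.1%, and of those over 20 kb, 3 of 10 (crp, Mnt and sima), against 27.0%.

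The pooled list, which holds background regions as well as peaks, had weaker regions at the promoters of many other genes. Of the 31 unbound genes, 17 had a region of the pooled list within 1 kb of a TSS, with strongest signals between 27.8 and 92.6, and 14 had none. In all, 22 of the 36 genes (61.1%) had some pooled region there, against 43.5% of all protein-coding genes. The median distance to the nearest IDR summit was 8168 bp for the bHLH genes, against 13852 bp for all genes. Neither comparison was set out by number of TSSs or by gene length. Of the 36 genes, 8 had 3 or more TSSs, against 1133 of all 13945, so these differences cannot be read as a trait of the family.

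The replicates shared some of these calls and not others. In its own 3312 strongest regions each replicate gave 7 bound bHLH genes (19.4%), against 16.1% of all genes in replicate 3's and 14.3% in replicate 4's. Both gave crp, da, Max and Mnt. For Mnt, replicate 3 did so through another region within 1 kb of a TSS (rank 1774), as it ranked the promoter peak described above 4604. Replicate 3 added dysf, gce and tgo, and replicate 4 added emc, sc and sima. Of the 30 IDR regions at the 36 genes, 20 met a strongest region of replicate 3 (66.7%, against 75.3% of all IDR peaks) and 24 met a strongest region of replicate 4 (80.0%, against 79.7%). In both replicates 15 of the 30 did so, against 58.5% of all IDR peaks. When only such peaks counted, crp, da and Max were bound, or 8.33% of the bHLH genes, against 8.87% of all genes, and the same 3 were bound when the overlap had to cover 50% of the region, against 8.66% of all genes. Body summits were found in 10 bHLH genes in replicate 3's strongest regions (27.8%, against 8.86% of all genes) and in 9 of the 36 in replicate 4's (against 8.82%). Replicate 4's lacked Max and gce and had sim. These body shares were not matched for gene length.

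The limit set for a bound gene moved these counts. At 500 bp the same 5 bHLH genes were bound, against 12.0% of all genes, and at 2 kb dpn and Myc joined them, giving 7 (19.4%), against 17.7%. When a summit counted only for its nearest TSS, the 5 were again bound (13.9%), against 11.1%. When only the 5' end of a gene counted, sima and Mnt were lost, which left 3 (8.33%), against 12.8%. In the stronger 1656 IDR regions only crp was bound (2.78%), against 7.83%, and 5 genes held a body summit (crp, dpn, Myc, nau and sima, 13.9%), against 5.03%. With 1 kb added to either side of the body, da and HLH54F joined the 10 genes (33.3%), against 19.3%. The body shares given here were not matched for gene length.

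**Figure D4:**
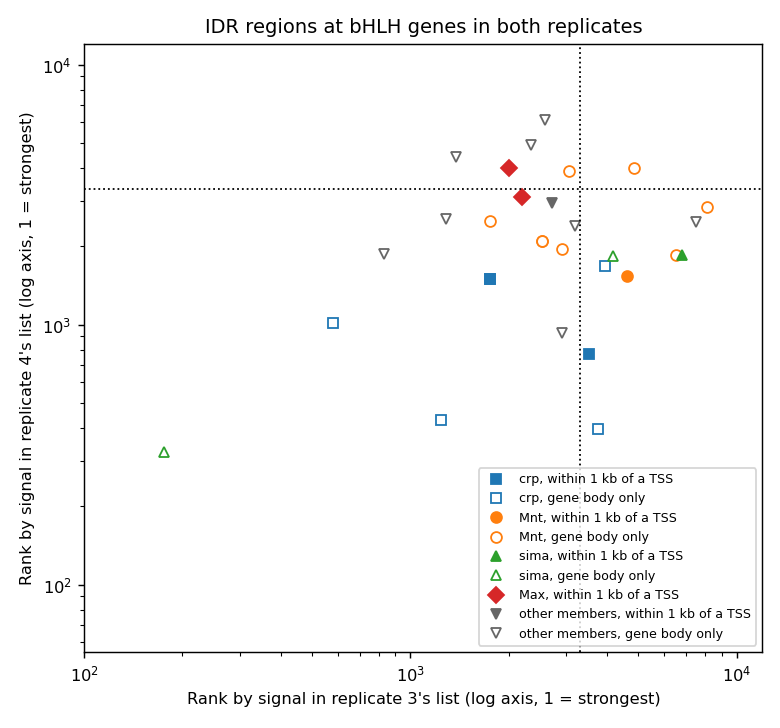
Each point is an IDR region at a bHLH gene, placed by the rank of the region it meets in replicate 3's list (across) and in replicate 4's list (up), both on log axes, so stronger regions lie towards the lower left. Filled points lie within 1 kb of a TSS, open points only in a gene body, and dotted lines mark rank 3312. The 30 regions take 28 positions, because in crp and in Mnt a pair of regions met the same region in each replicate. The strongest peak in sima (ranks 176 and 323) stands apart at the lower left.

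E-boxes were present at about as many summits at bHLH genes as in the DNA beside them. Within 50 bp of the summit, 16 of 30 windows held a CANNTG (53.3%, exact 95% binomial interval 34.3 to 71.7), against 35.4% of all IDR summits (1165 of 3292). The interval treats the 30 summits as independent. They belong to only 11 genes, so it measures no spread between genes or replicates, and the difference was not tested. The flanking windows, centred 500 bp to the left and right of the same 30 summits, held one in 15 and in 13 of the 30. Over all IDR peaks, 40.1% of the left and 40.5% of the right flanking windows held one, more than the 35.4% at the summits. GC content was 36.2% at the bHLH summits and 34.7% at all IDR summits. In the left and right flanking windows of all IDR peaks it was 42.9% and 43.0%. CANNTG reads the same pattern on both strands, so 1 search covered both. The most frequent of the 10 E-box classes at the 30 summits was CACATG, which on the opposite strand reads CATGTG, in 4 windows (13.3%), against 4.13% of all IDR summits. At 3 of these 4 the gene was crp and at the other Mnt. The left flanking windows of the 30 summits held CACATG in 4 as well (13.3%), and the right ones in 2 (6.67%).

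The class CACGTG, known as the site of Max dimers, was present in 1 of the 30 windows (3.33%), against 0.759% of all IDR summits (25 of 3292). That window is the summit of signal 97.9 in an intron of Mnt, 5302 bp from the gene's 5' end (chrX:3677053-3677153, plus strand), and it is shown for this site, a choice made after the motifs were seen. The site begins 2 bp to the left of the summit. Of the 30 left flanking windows, 1 also held CACGTG (3.33%), and of the right ones 0. Over all IDR peaks, the left and right flanking windows held it in 1.34% and 1.61%.
Mnt intron: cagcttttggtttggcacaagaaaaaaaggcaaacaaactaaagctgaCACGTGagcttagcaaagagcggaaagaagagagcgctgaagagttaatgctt
A match shows only that these letters lie in the window.

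Other bHLH genes and genes that act with the family were also read, from lists that hold 20 and 13 genes. Both lists were drawn up with earlier results of these data known. Among the 20 bHLH genes outside the 36, 5 were bound, against the 14.4% of all genes. They were tai, the coactivator of the ecdysone receptor, SREBP, the lipid regulator, the Notch target genes E(spl)mdelta-HLH and E(spl)m7-HLH, and the clock repressor gene cwo. Their strongest signals within 1 kb were 253, 239, 228.5, 153 and 97.0. The E(spl)mdelta-HLH summit of signal 228.5 was nearer to CG43116 (374 bp) than to E(spl)mdelta-HLH itself (999 bp), and the summit nearest to E(spl)mdelta-HLH, at 276 bp, had a signal of 168.5. With hry, 11 of all 57 listed bHLH genes were bound (19.3%). The gene sage itself was not bound. Of the 13 cofactor and pathway genes, 5 were bound (38.5%), again against 14.4%. This share was not matched for number of TSSs and was not tested. The bound gene gro has 4 annotated TSSs, Sin3A and Hph have 2 each, and pont and Su(H) have 1. Of all genes, 10.1% with 1 TSS, 20.8% with 2 and 39.5% with 3 or more were bound. The gene gro, whose product is a corepressor used by several Hairy-type repressors, had 3 summits within 1 kb with signals of 173, 105 and 256. The regions of signal 173 and 105 overlapped and fell on the same region of each replicate (rank 1904 in replicate 3 and 848 in replicate 4). Sin3A, another corepressor gene, had a strongest signal of 203 at a summit 414 bp from its TSS and 201 bp from that of a non-coding gene, and pont, Hph and Su(H) had 159.8, 118 and 111. The Hph gene encodes the prolyl hydroxylase that marks Similar for degradation, and its summit was about as near to the TSS of Enoph (174 bp) as to its own (182 bp).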

How the data were processed

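The labels describe 2 ChIP-seq samples of Sage-GFP larvae, biological replicates 3 and 4, with chromatin sheared by sonication. The authors deposited 1 list of peaks and background regions per replicate, 1 for the pooled replicates and 1 of regions past their IDR threshold, derived with a control alignment, per the text deposited with the lists. The deposited signal of a region (column 7) is the authors' value. The sources used here give no scaling, aligner or peak caller for it, and depth is unknown. Lists on dm3 were not used.

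Regions on dm6 were joined to genes of Ensembl release 115, and sequence came from the RefSeq Release 6 genome, with Python 3.11.15 and pandas 2.3.3. No region on an arm reached beyond its reference arm. Symbols were matched exactly, and h, Side and Dl through RefSeq's older symbols (hry, Sidpn and Delta). A replicate's region was matched to a peak by an overlap of at least 1 bp. Coordinates count from 1. The steps were tested on simulated data. Nothing shows that the replicates came from separate cultures.

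The 37 genes, chosen by family and symbol, and the lists of other bHLH and cofactor genes were all drawn up with earlier results of these data known. Every listed gene is accounted for. Bound genes and genes with an IDR summit in the body are named with values, genes with a pooled region within 1 kb with its signal, and other bHLH and cofactor genes only if bound. The alternatives tried were TSS limits of 500 bp and 2 kb, the stronger 1656 IDR regions, each replicate's own list, peaks met in both replicates, the nearest TSS only, the gene's 5' end only and other motif windows.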

Additional observations from a re-analysis of the deposited data

How the results depend on the processing

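The count of 5 bound genes stayed at 5 with a TSS limit of 500 bp and with the nearest TSS only, became 7 with 2 kb and 6 with hairy. Leaving out either replicate gave 7. It was 1 (crp) in the stronger 1656 IDR regions, where 7.83% of all genes were bound, and 3 (crp, da and Max) with the gene's 5' end only or with peaks met in both replicates, whether by 1 bp or by 50% of the region in length. With any pooled region, an alternative chosen after seeing the data, it was 22. The 10 genes with a body summit became 9 to 10 when a replicate was left out, 12 with 1 kb on either side, and 5 in the stronger 1656 regions. The 62.4 summits per Mb became 52.8 to 57.6 without a replicate, 60.0 with overlapping regions merged, and 19.2 in the stronger 1656 regions, against 10.9 there over all genes. A smaller list lowers counts by construction. The share of windows with an E-box was 70.0% within 100 bp (60.8% of all peaks) and 55.6% in the stronger regions (35.5%). Matching replicate regions by summits within 250 bp left all 16 ranks of the promoter peaks equal. No paired analysis was possible because there was 1 group and no test. Depth is unknown, so a gene without a region cannot be told from one below detection.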
